A study of Mus with 8 samples.

Results

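This account is about the genes whose response to adipogenic induction differed between control and Prep1 down-regulated 3T3-L1 cells. The response of a gene is its log2 ratio of day 1 to day −2. The interaction is the response of P cells minus the response of C cells, and it was tested over all 8 libraries of the series. Of the 24013 genes in the count table, 13339 had enough counts to be tested. At a Benjamini-Hochberg adjusted p-value under 0.1 in edgeR's quasi-likelihood test, 316 of them were called, or 2.37%. In 258 genes (1.93%) the response was lower in P cells, and in 58 (0.435%) it was higher.

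3T3-L1 is a mouse line of preadipocytes that turns into fat cells when stimulated. C cells were infected with a lentivirus carrying a scrambled shRNA and P cells with one carrying an shRNA against Prep1, and both were selected with puromycin as populations, with no clones named. RNA was taken from 2 biological replicas of each at day −2, in growth medium, and at day 1, after a change to 10% FBS with 1 μM dexamethasone, 0.5 mM IBMX and 1 μg/ml insulin. No library came from cells kept to day 1 without these agents, so the effects of the inducers, of the serum and of the days in culture cannot be told apart, and neither can those of Prep1 loss and of the single shRNA population.

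Dexamethasone acts through the glucocorticoid receptor, IBMX blocks the breakdown of cAMP, and insulin drives the growth pathway. Together they switch on C/EBPβ and C/EBPδ, which then turn on C/EBPα and PPARγ, the regulators of the genes for lipid storage. Prep1, a homeodomain protein of the TALE class encoded by Pknox1, binds DNA with Pbx partners and competes with Meis proteins for them. A gene can have a different response because it already differs before induction, because it diverges only after it, or both, and the genes are ordered here along that division.

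Pknox1 itself was lower in P cells on both days. It had 28.1 and 26.5 CPM (counts scaled to library size) in the replicas of C cells at day −2 against 17.3 and 18.3 in P cells, and 38.1 and 36.5 against 23.6 and 23.8 at day 1. The replicas of C and P cells did not overlap on either day. The P to C ratio was −0.62 at day −2 and −0.65 at day 1 on the log2 scale (adjusted p = 0.0558 and 0.0575), short of the 2-fold size asked of a call between C and P cells. Its interaction was −0.04 ± 0.20 (SE), with a 95% interval of −0.51 to 0.43 and an adjusted p of 0.921.

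The libraries held between 20428816 and 27614353 counts, and 3 counts correspond to between 0.109 and 0.147 CPM, which bounds counting error alone. The P replicas at day −2 stood apart. Over 5600 genes, the SD of the log2 difference between them was 0.795, against 0.121 to 0.261 in the other conditions. Both libraries enter every interaction. Without replica 1 of P cells at day −2 the number of genes called was 1484, of which 315 were among the 316, and without replica 2 it was 8395, including all 316, with the remaining library assumed to vary like the other conditions. Without a library of C cells at day −2 it was 38 or 47, without one of C cells at day 1 it was 69 or 66, and without one of P cells at day 1 it was 32 or 33. The sign of the interaction was kept in all 316 genes in each of these fits. In each of the 316 the responses of P and C replicas did not overlap, so leaving out a library could hardly change the sign. The kept sign therefore lends no support. Markers of other cells were low. All 5 endothelial markers stayed under 1 CPM in every library, macrophage markers summed to between 8.68 and 23.8 CPM, and none of these, nor any epithelial or muscle marker, was called on the interaction. The preadipocyte markers summed to between 13000 and 19200 CPM in 7 libraries and to 63100 CPM in replica 1 of P cells at day −2. The part of this library in the results beyond the fits given was not tested. In RNA from whole cultures, fewer cells that express a gene and less RNA per cell cannot be told apart.

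Most genes with a lower response in P cells were called higher by induction in C cells. Of the 258 genes, 186 were called higher by induction in C cells, where 10.7% of all genes tested were called higher and 9.68% lower. Both responses enter the interaction, that of C cells with a negative sign. A lower response in P cells thus favours genes that rose in C or fell in P cells, and a higher one the reverse. The counts in this paragraph therefore describe the genes, and their distance from the shares over all genes lends no support. P cells showed no called response in 124 of these 186, a called rise in 50 and a called fall in 12. A further 44 genes fell in P cells with no call in C cells, 9 fell in both, and 19 had no call in either. Among all genes, 7.65% were called higher and 10.4% lower by induction of P cells. Of the 58 genes with a higher response, 26 were called higher in P cells with no call in C cells, 9 were called higher in both, 9 were called lower in C cells with no call in P cells, 3 fell in C cells and rose in P cells, 5 fell in both, and 6 had no call in either. In each of the 316 genes all the differences between day 1 and day −2 replicas of P cells lay on one side of those of C cells, as they did in 39.6% of all genes tested. In 308 of them the interaction was over 2-fold. At the edge of the threshold stood Efemp2, an elastic fibre protein, with an adjusted p of 0.0992 and an interaction of −1.16, and just outside it Uba7, the activating enzyme for ISG15, with 0.101 and −1.97.

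The genes were then divided by the days on which P and C cells differed, at an adjusted p under 0.1 and a ratio over 2 or under 0.5. At day −2, 4.83% of all genes tested were called higher and 2.15% lower in P cells, and at day 1 the shares were 1.83% and 2.23%. Of the interaction genes, 158 or 50%, were called at day −2 and not at day 1. Another 80 (25.3%) were called only at day 1, 33 (10.4%) on both days and 45 (14.2%) on neither. With C and P cells fitted within each day, 35 were called at day −2 only, 120 only at day 1 and 10 on both days. Which group was the larger thus depended on the fit. In 287 of the 316 genes the P to C ratio at day −2 had the opposite sign to the interaction. The same day −2 libraries enter both values with opposite signs, so this count describes the genes and lends no support to either value.

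**Figure D1:**
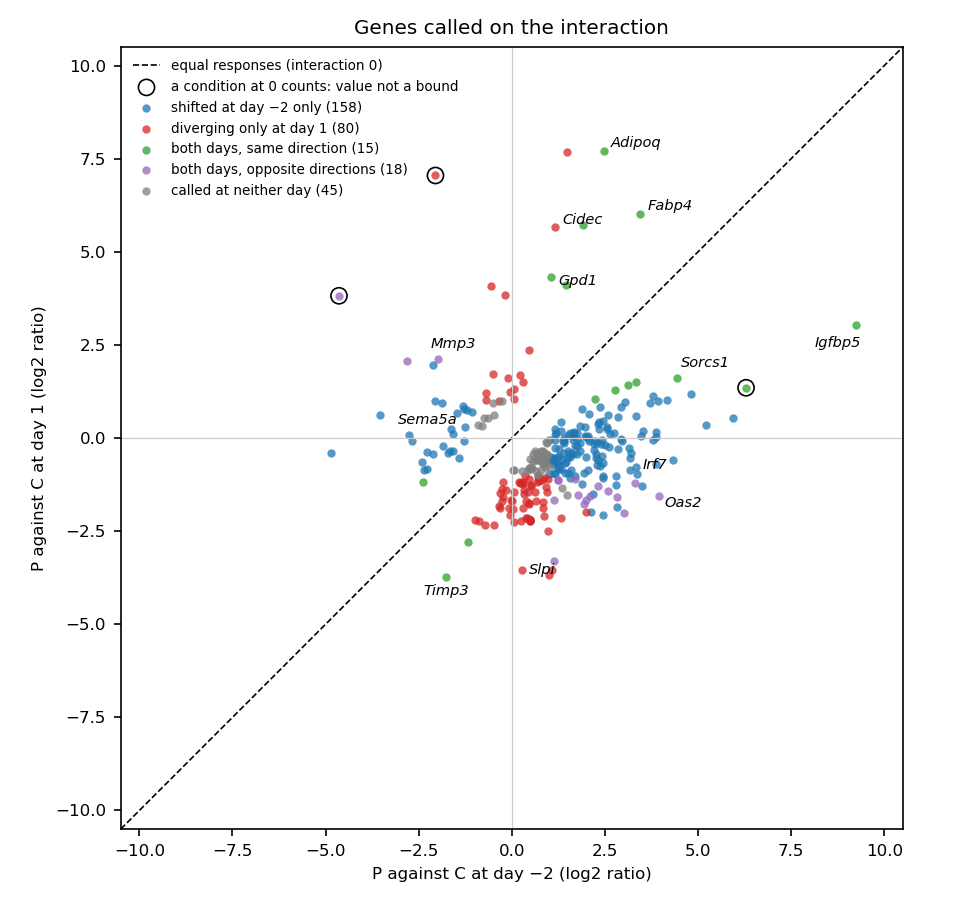
P to C ratio (log2) before induction, at day −2 (horizontal axis), and at day 1 (vertical axis) for the 316 genes called on the interaction, coloured by the days on which the ratio was called. Distance from the dashed line is the interaction; the 158 genes shifted at day −2 only lie along the horizontal axis, mostly on its right, the 80 genes diverging only at day 1 lie along the vertical axis, and black rings mark 3 genes with a condition at 0 counts, whose fitted values are not bounds.

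Among the 158 genes shifted at day −2 only, 132 had a lower and 26 a higher response in P cells. All 132 were higher in P cells at day −2. Their median P to C ratio was 2.02 at day −2 and −0.25 at day 1 on the log2 scale, and their median response was 2.38 in C cells against 0.21 in P cells. The small median ratio at day 1 follows from the division, which asks for no call on that day. Of the 132, 105 were called higher by induction in C cells, while 30 were called higher and 33 lower in P cells. Set against the mean of C cells at day −2, the median gene stood 2.02 and 1.88 higher in the P replicas at day −2, 2.30 and 2.41 higher in the C replicas at day 1, and 2.17 and 2.03 higher in the P replicas at day 1. The 26 genes with a higher response ran the other way: they were lower in P cells at day −2 by a median of −1.79, and the median ratio at day 1 was 0. A missing call at day 1 is not proof of equal levels. At day 1, 96 of the 158 differed by less than 1.5-fold, the 95% interval of the ratio lay within 2-fold either way in 68 of the 132 and 13 of the 26, and 14 and 4 had an adjusted p under 0.1 with too small a ratio for a call.

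**Figure D2:**
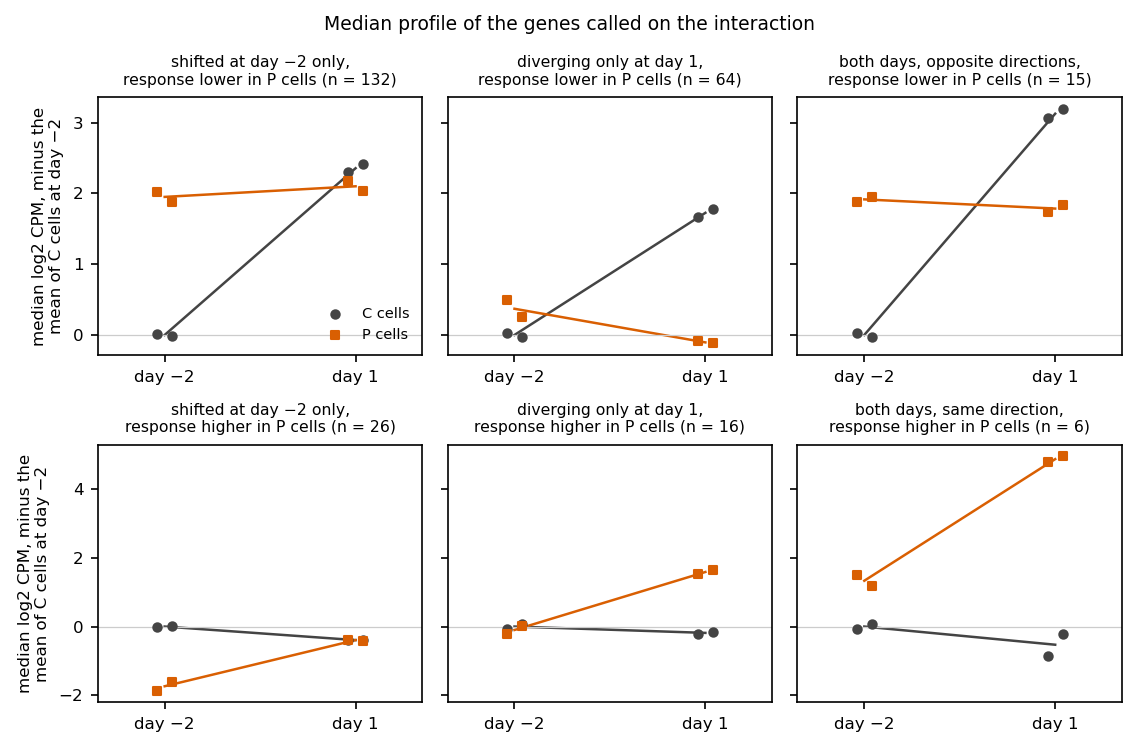
Median log2 CPM of 6 sets of interaction genes in each library, relative to the mean of C cells at day −2, with lines through the means of the 2 replicas (C cells as grey circles, P cells as orange squares). In the 132 genes at top left P cells start about 2 log2 units above C cells and meet them at day 1; in the 64 genes at top centre both start close together and only C cells rise.

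The interferon-stimulated genes had the most calls of any list. These genes for antiviral proteins are switched on when interferon binds its receptor. Of the 40 measured, 25 had a lower response in P cells and 0 a higher one, and the median interaction of the list was −2.73 against −0.01 over all genes tested. The shares over all genes tested, 1.93% lower and 0.435% higher, stand beside the counts of this list and of those that follow. They belong to the fit of all 8 libraries without a block. Far more genes were called over all without a P library of day −2, so list medians are given for those fits. Of the 40, 36 were called higher by induction in C cells and 12 in P cells, 26 were already above C cells by call at day −2, and 8 below them at day 1. Relative to C cells at day −2, the median member stood at 1.78 and 1.97 in the P replicas at day −2, 3.11 and 3.26 in the C replicas at day 1, and 2.62 and 2.69 in the P replicas at day 1. Thus P cells began above C cells and ended slightly below them. Among the 25 called, 18 were shifted at day −2 only, 3 at day 1 only and 4 on both days. Without replica 1 of P cells at day −2 the list median was −2.51, and without replica 2 it was −2.37.

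Irf7, the transcription factor that amplifies interferon production, stood at 1.12 and 1.02 CPM in C cells at day −2 and at 23.2 and 22.6 at day 1. In P cells it was at 11.5 and 10.5 CPM before induction and at 11.8 and 11.6 after it. Its level in P cells hardly moved, and at day 1 it was below that of C cells, with no overlap on either day. The interaction was −4.32 ± 0.25 (adjusted p = 0.00289). Isg15, a ubiquitin-like protein attached to other proteins during the response, went from 4.38 and 3.28 CPM to 53.3 and 64.7 in C cells, and from 38.6 and 30.6 to 34.7 and 30.9 in P cells, an interaction of −4.02 ± 0.31 (adjusted p = 0.00415). Usp18, which removes ISG15 and dampens the receptor, followed the same course, with an interaction of −4.59 ± 0.31 (adjusted p = 0.00399).

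Oas2, an oligoadenylate synthetase that activates RNase L, was called on both days in opposite directions. It rose from 0.279 and 0.266 CPM to 32.6 and 34.9 in C cells and from 4.15 and 4.35 to 12.0 and 10.9 in P cells. P cells were above C cells at day −2 and below them at day 1, by a log2 ratio of 3.94 and −1.56. The interaction was −5.50 ± 0.28 (adjusted p = 0.00289). Oas1a, Oasl2 and Stat2 crossed in the same way. In contrast Mx1, a GTPase against influenza virus, was not called at day −2, with 2.83 and 2.26 CPM in C and 3.99 and 3.00 in the P replicas. At day 1 it stood at 18.4 and 22.1 CPM in C cells and at 5.13 and 6.86 in P cells, and its interaction was −2.20 ± 0.37 (adjusted p = 0.0483). Cxcl10, a chemokine that draws T cells, and Rsad2, which makes an antiviral nucleotide, were the other members that diverged only at day 1.

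**Figure D3:**
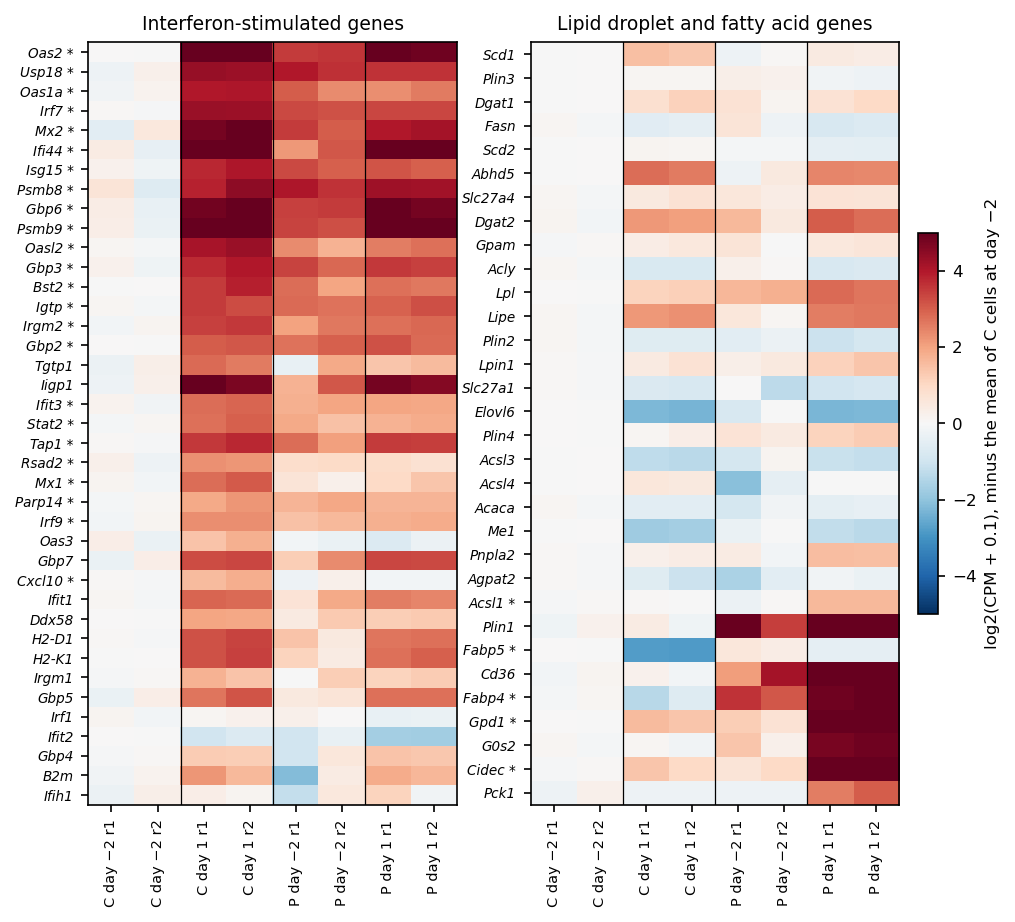
Heat maps of log2(CPM + 0.1) in each library, minus the mean of C cells at day −2, for 39 interferon-stimulated genes and the 32 genes of lipid droplets and fatty acid handling that were tested, ordered by interaction, with the called genes starred. In the left map most rows are already raised in the P replicas at day −2; in the right map the rows raised far more in P than in C cells at day 1 lie at the bottom.

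Cebpd and Cebpa, factors of the adipogenic cascade, belonged to the genes shifted at day −2 only. Of 32 C/EBP, PPAR and related regulators 3 had a lower response in P cells (Cebpd, Cebpa and Ddit3) and 0 a higher one, with a median of −0.45. Cebpd stood at 6.66 and 9.04 CPM in C cells at day −2, and at 64.5 and 32.9 in the P replicas. At day 1 it reached 66.5 and 61.2 CPM in C cells, and P cells held 71.4 and 65.7. The P replicas before induction were far apart, but both were above the C replicas. Its interaction was −2.53 ± 0.45 (adjusted p = 0.0617), and the ratio at day 1 was 0.10. Cebpa rose from 0.757 and 0.842 CPM to 16.4 and 16.9 in C cells, and from 7.51 and 3.39 to 17.5 and 19.1 in P cells (interaction −2.61 ± 0.52, adjusted p = 0.0836). Ddit3, whose product CHOP blocks C/EBP proteins, fell in P cells only by call and was called at neither day between C and P cells. The list median was −0.27 without replica 1 of P cells at day −2 and −0.57 without replica 2. Members were called in both directions in each of those fits. None of the 3 was called when the replica number was kept as a block, or when a library other than those of P cells at day −2 was left out.

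IBMX and serum raise the immediate early genes, the first to answer cAMP and growth signals. Of 32 such genes, 8 had a lower response in P cells and 0 a higher one, and the median was −1.09. Induction raised 23 of them by call in C cells and 11 in P cells. Egr1, a zinc finger factor, stood at 34.7 and 39.2 CPM in C cells at day −2 and at 150 and 112 in P cells. At day 1 the conditions were near each other, at 291 and 275.5 CPM in C and 258 and 256 in P cells. The interaction was −1.96 ± 0.25 (adjusted p = 0.0205). Egr2, Nr4a1, Nr4a3 and Btg2 were likewise higher in P cells at day −2 only. Gem, a small GTPase that blocks calcium channels, differed from these. It was close in both cells before induction, at 16.7 and 15.9 CPM in C and 22.1 and 18.6 in P cells, and then reached 169 and 170.2 CPM in C cells against 61.3 and 58.0 in P cells (interaction −1.83 ± 0.20, adjusted p = 0.013). Per2, a clock protein, shared that course with 71.3 and 77.5 CPM in C and 28.2 and 28.6 in P cells at day 1. Without replica 1 of P cells at day −2 the median of the immediate early list was −0.76, and without replica 2 it was −1.3.

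Glucocorticoid targets responded in both cells: of 25 measured, 19 rose by call in C and 17 in P cells, and 2 (Hp and Cebpd) were called on the interaction, both lower. The list median was −0.3, and it was −0.2 without replica 1 of P cells at day −2 and −0.15 without replica 2. Members were called in both directions in each fit without a replica. Hp, the haemoglobin-binding protein haptoglobin that fat cells secrete, rose from 0.199 and 0.133 CPM to 16.7 and 17.6 in C cells. In P cells it went from 3.67 and 3.21 CPM to 12.1 and 10.6, and its interaction was −4.91 ± 0.35 (adjusted p = 0.00399). The C libraries at day −2 were near 3 counts, so the size of this interaction is uncertain. Of 25 genes of cytokine and STAT3 signalling, 5 had a lower response and 1 a higher one. Their median was −1.09. It was −0.81 without replica 1 of P cells at day −2 and −1.11 without replica 2. Stat3 stood at 145.5 and 131 CPM in C and 323 and 290.1 in P cells at day −2, and at 450.5 and 533 in C and 408 and 404 in P cells at day 1 (interaction −1.43 ± 0.22, adjusted p = 0.0381). The receptors Lifr, Il6st and Il1r1 were shifted in the same direction. Il6ra, the chain that binds interleukin-6, was the exception, with 15.5 and 14.9 CPM in C and 2.88 and 3.00 in P cells at day −2, and an interaction of 1.51 ± 0.27 (adjusted p = 0.0616).

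Matrix and adhesion genes were also among those shifted before induction. Thbs1, the matrix protein thrombospondin, was 1 of 9 genes with a lower response that were called lower by induction in both cells. It stood at 883.5 and 886 CPM in C cells at day −2 and at 5483 and 3815 in P cells, then at 299 and 335 in C and 294 and 274 in P cells. P cells fell from a higher start to the same level (interaction −2.55 ± 0.29, adjusted p = 0.013). Thy1, a surface marker of fibroblasts, was at 941 and 684 CPM in P cells at day −2 and between 128 and 202 CPM in the other 6 libraries. Of 23 collagen chains 2 were called lower, Col23a1 and Col12a1, with a list median of −1.60. That median was −0.79 without replica 1 of P cells at day −2 and −2.28 without replica 2, since the median chain stood 2.33 above C cells in the first and 0.61 above in the second. Of 33 matrix proteases, their inhibitors and elastic fibre genes, 4 had a lower and 3 a higher response. Of 27 integrins and laminins, 2 had a lower and 1 a higher one. The numbers of both lists also grew where a library of P cells at day −2 was left out, as did those over all genes.

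Among the 26 genes shifted at day −2 only with a higher response, Sema5a, a semaphorin that guides axons, had the lowest p. It stood at 27.3 and 31.4 CPM in C cells at day −2 and at 4.10 and 4.50 in the P replicas. At day 1 it was at 124 and 128 CPM in C and 126 and 139 in P cells, which overlap. The interaction was 2.83 ± 0.21 (adjusted p = 0.00399). Gas7, a growth arrest gene, and Dpt, the matrix protein dermatopontin, rose more in P cells too, with interactions of 1.88 ± 0.19 and 2.19 ± 0.22 (adjusted p = 0.00959 and 0.0103). Dpt passed from 7.78 and 9.35 CPM in P cells to 126 and 119, beyond the 71.5 and 62.0 CPM of C cells at day 1. Gdpd5, a phosphodiesterase of phospholipid breakdown, instead fell in C cells, from 13.6 and 14.4 CPM to 2.21 and 2.87, to the level it had in P cells on both days, between 1.93 and 2.65 CPM. Lgr6, a receptor of the Wnt pathway, also fell in C cells, from 12.1 and 13.6 CPM to 0.158 and 0.199, and in P cells it was at or below 0.533 CPM throughout.

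The 80 genes diverging only at day 1 were not called between C and P cells before induction, which is not proof of equal levels. Their small median ratio at day −2 follows from the division, which asks for no call on that day. In the 64 with a lower response the median P to C ratio was 0.39 at day −2 and −1.71 at day 1, and the median response was 1.73 in C and −0.43 in P cells. Before induction 43 of the 64 differed by less than 1.5-fold, the 95% interval lay within 2-fold in 39, and 16 had an adjusted p under 0.1. In the 16 with a higher response the median ratio was −0.08 and then 1.65, and these numbers were 11, 8 and 1.

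The lowest p among the 64 belonged to the Ugt1a genes, which add glucuronic acid to lipophilic compounds. Ugt1a1 stood at 12.6 and 11.9 CPM in C and 17.3 and 17.1 in P cells before induction. At day 1 it was at 87.8 and 97.9 CPM in C and 20.4 and 20.2 in P cells, a clear separation (interaction −2.68 ± 0.20, adjusted p = 0.00399). All 8 Ugt1a genes tested were called with nearly the same values, between −2.72 and −2.56. They are transcripts of one locus that share their 3′ exons, and how reads on shared exons were counted is not stated, so they are best taken as 1 signal. Counted so, 251 genes had a lower response, and 57 of them diverged only at day 1.

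Next in the order, and named after its values were seen, was Slpi, a secreted inhibitor of leukocyte proteases. It rose from 11.2 and 9.04 CPM to 77.4 and 68.0 in C cells, and went from 14.3 and 10.2 to 6.67 and 5.79 in P cells. The replicas overlapped before induction and were more than 10 times apart after it (interaction −3.81 ± 0.32, adjusted p = 0.00515). Complement and acute phase genes had 4 of 19 members with a lower response and 0 with a higher one. Their median was −1.41. It was −1.29 without replica 1 of P cells at day −2 and −0.85 without replica 2, with calls in both directions in each. With the replica number as a block 2 were called lower. C3, the central protein of complement, went from 6.74 and 6.11 CPM to 634.5 and 753 in C cells, and from 3.52 and 4.21 to 141 and 134 in P cells. Both cells raised it steeply, P cells less so (interaction −1.61 ± 0.23, adjusted p = 0.0328). Masp1, a protease that starts the lectin pathway of complement, rose in C cells, from 17.1 and 12.9 CPM to 48.5 and 53.1, and went from 17.9 and 20.7 to 10.9 and 12.0 in P cells, a change under 2-fold. Grem1, which binds BMP ligands, fell in both and further in P cells, to 13.6 and 13.8 CPM against 41.0 and 40.2 (interaction −1.34 ± 0.21, adjusted p = 0.0414).

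**Figure D4:**
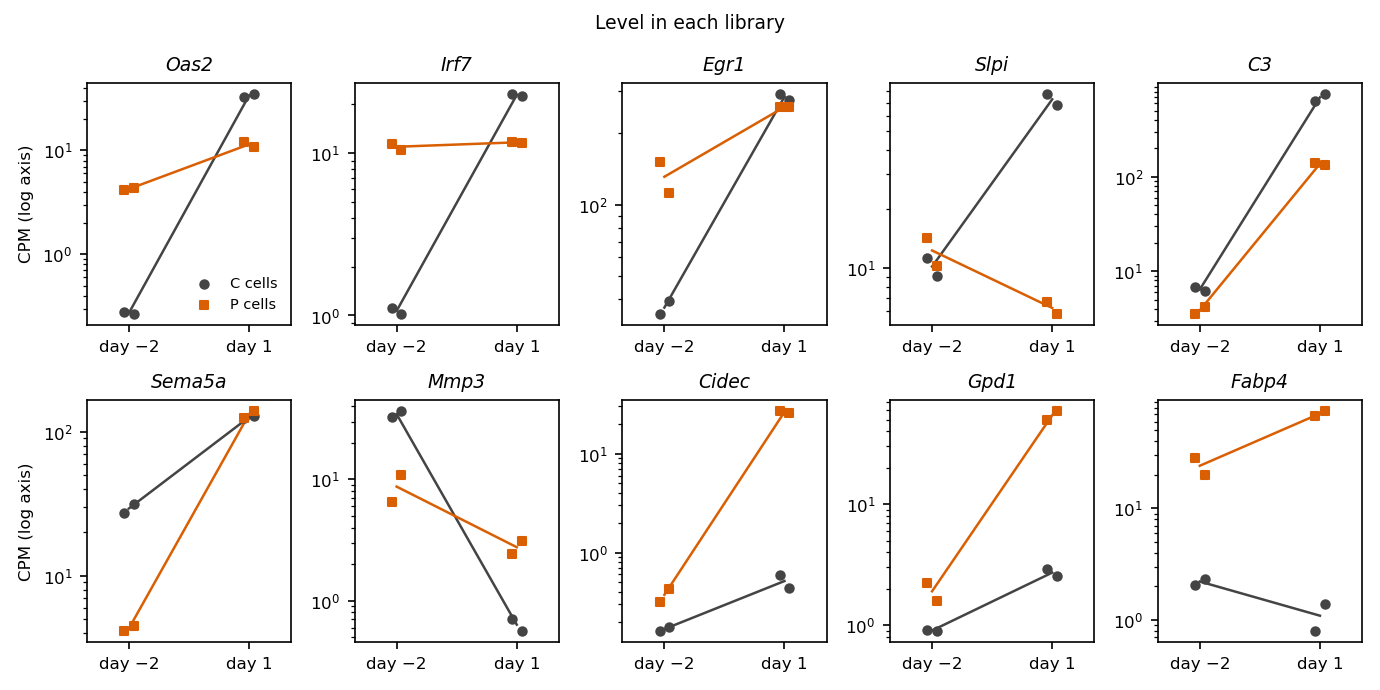
CPM of 10 genes in each library on a log axis, with lines through the means of the 2 replicas (C cells as grey circles, P cells as orange squares). Oas2, Irf7 and Egr1 start higher in P cells, Sema5a starts lower, Slpi and C3 separate at day 1 with C cells above, and Cidec, Gpd1 and Fabp4 end far higher in P cells.

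Genes of fat storage were among those with a higher response in P cells. Of 32 genes of lipid droplets and fatty acid handling, 5 had a higher and 0 a lower response, with a median of 0.39. Over all genes tested 0.435% had a higher and 1.93% a lower response. Induction raised 13 of the 32 by call in P cells and 7 in C cells, and at day 1 P cells were above C cells by call in 11. Cidec, which enlarges lipid droplets, was at 0.159 and 0.177 CPM in C and 0.320 and 0.428 in P cells at day −2, and at 0.592 and 0.438 in C and 26.8 and 26.0 in P cells at day 1. Its level was above 1 CPM in P cells at day 1 only (interaction 4.51 ± 0.50, adjusted p = 0.013). Acsl1, which activates fatty acids, stayed between 16.5 and 21.2 CPM in C cells on both days and in P cells at day −2, and was at 63.2 and 61.9 in P cells at day 1 (interaction 1.73 ± 0.24, adjusted p = 0.0276). Fabp5, a fatty acid carrier, fell from 109 and 106 CPM to 15.6 and 15.1 in C cells and went from 162 and 138 to 79.9 and 78.1 in P cells. The decline was over 2-fold only in C cells (interaction 1.89 ± 0.20, adjusted p = 0.011). Nrip1, a corepressor of nuclear receptors that holds back energy use in fat, rose to 62.7 and 66.6 CPM in P cells against 29.3 and 35.3 in C cells (interaction 1.36 ± 0.24, adjusted p = 0.0546). Without replica 1 of P cells at day −2 the median of the lipid list was 0.26, and without replica 2 it was 0.39. In each of those fits the calls ran in both directions.

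Some fat cell genes were higher in P cells before induction and more so after it. Gpd1, which makes the glycerol backbone of triglycerides, stood at 0.916 and 0.886 CPM in C and 2.24 and 1.57 in P cells before induction. At day 1 it was at 2.88 and 2.55 CPM in C and 50 and 58.6 in P cells (interaction 3.26 ± 0.34, adjusted p = 0.011). Fabp4, the main fatty acid carrier of fat cells, was at 2.07 and 2.35 CPM in C and 28.4 and 19.8 in P cells at day −2, and at 0.789 and 1.39 in C and 67.3 and 74.3 in P cells at day 1 (interaction 2.57 ± 0.42, adjusted p = 0.0462). Adipoq, the hormone adiponectin, was at or under 3 counts in every C library but reached 19.4 and 16.1 CPM in P cells at day 1 (adjusted p = 0.0939). Slc2a4, the insulin-regulated glucose carrier, was not higher in P cells before induction, with 0.199 and 0.177 CPM in C and 0 and 0.0713 in P cells. It was called only at day 1. Slc2a4 stayed under 1 CPM in all libraries and was at 0 in both C replicas at day 1. Its fitted value is therefore no bound, and its adjusted p was 0.0895. Over the 9 adipocyte markers tested, 4 had a higher and 0 a lower response, with a median of 2.57, and all 9 were called higher by induction in P cells against 2 in C cells. The sum over the 10 markers in the table was 27.8 and 27.5 CPM in C and 54.3 and 49.6 in P cells at day −2, and 67.9 and 63.3 in C and 237 in both P replicas at day 1. With the replica number as a block, 1 marker was called. The marker median was 2.82 without replica 1 of P cells at day −2 and 2.33 without replica 2.

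The other genes called on both days were few. In 9 genes P cells were on the same side on both days with a lower response, and in 15 they crossed from above to below C cells. Tnn, the matrix protein tenascin-W, was one that crossed, with 1.91 and 1.64 CPM in C and 17.6 and 18.1 in P cells at day −2, and 17.1 and 16.2 in C and 6.67 and 7.56 in P cells at day 1. The levels traded places (interaction −4.55 ± 0.26, adjusted p = 0.00289). Slfn2, a schlafen protein needed for T cell quiescence, reached 12.2 and 13.1 CPM in C cells at day 1 and stayed at or under 1.31 in P cells (interaction −4.44 ± 0.37, adjusted p = 0.00515). Igfbp5, which binds insulin-like growth factors, was at 0.159 and 0.0443 CPM in C cells at day −2 and 8.33 and 9.12 at day 1, while P cells held between 51.5 and 81.8 CPM in all 4 libraries. Sorcs1, a sorting receptor of the sortilin family, rose in both and was higher in P cells on both days, with an interaction of −2.84 ± 0.23 (adjusted p = 0.00495). Timp3, an inhibitor of matrix proteases, was lower in P cells on both days, at 8.95 and 8.42 CPM against 29.4 and 30.1 and then at 0.598 and 0.560 against 7.85 and 7.57.

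With a higher response, 6 genes were on one side on both days and 3 crossed. Mmp3, the protease stromelysin, fell in C cells from 32.6 and 36.5 CPM to 0.710 and 0.557, and in P cells from 6.55 and 10.9 to 2.44 and 3.08. P cells were lower before induction and higher after it (interaction 4.09 ± 0.44, adjusted p = 0.0127). Dapk1, a kinase of cell death, lay between 1.46 and 2.03 CPM in C cells on both days, at 0.373 and 0.143 in P cells at day −2 and at 7.09 and 7.28 at day 1 (interaction 4.89 ± 0.59, adjusted p = 0.016). Kcnt2, a sodium-activated potassium channel, stayed under 1 CPM in C cells and went from 2.08 and 2.96 CPM to 19.8 and 22.6 in P cells (interaction 3.81 ± 0.54, adjusted p = 0.0298).

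**Figure D5:**
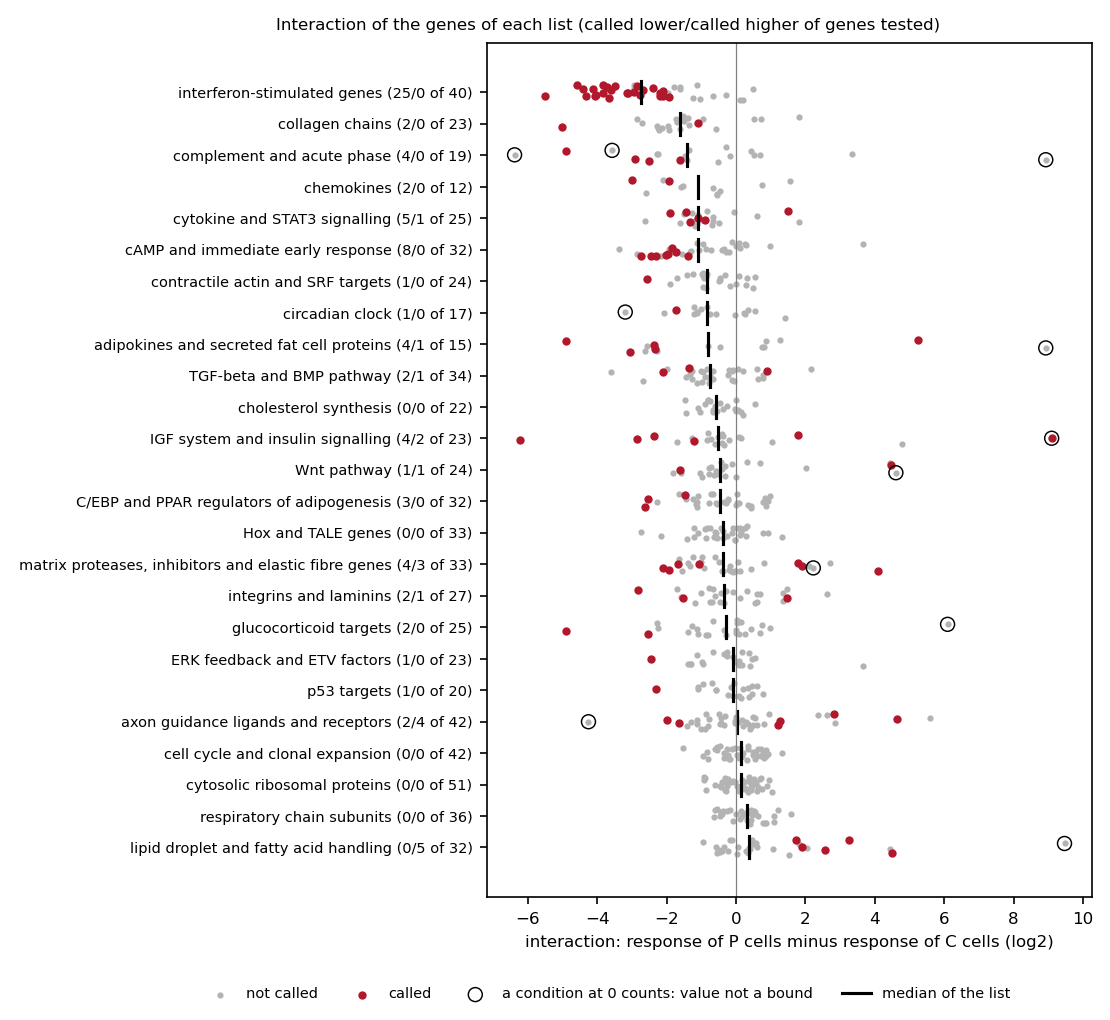
Interaction (log2) of every tested gene in 25 hand-written lists, with called genes in red, the list median as a black bar, and rings on genes with a condition at 0 counts, whose fitted values are not bounds. The interferon list lies farthest to the left with a median of −2.73 and the lipid list farthest to the right with 0.39, where all genes have a median of −0.01.

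Other lists held few or no called genes. None of 42 cell cycle genes, 22 genes of cholesterol synthesis, 33 Hox and TALE genes, 51 ribosomal protein genes and 36 respiratory chain genes was called, with medians of 0.15, −0.58, −0.37, 0.16 and 0.33. These numbers of 0 come from edgeR and do not show equal responses, since a small difference was not detectable with 2 replicas. The ribosomal median was −0.14 without replica 1 of P cells at day −2 and 0.35 without replica 2. For the respiratory chain genes these medians were −0.03 and 0.68. The calls of the lists that follow grew in number without a P library of day −2, as did those over all genes. Of 42 axon guidance genes 4 had a higher and 2 a lower response, of 34 TGF-beta and BMP genes 1 and 2, of 24 Wnt genes 1 and 1, of 23 genes of the IGF system and insulin signalling 2 and 4, and of 15 adipokines 1 and 4. Among 12 chemokines 2 were lower, and in the lists of 24 contractile, 23 ERK feedback, 20 p53 target and 17 clock genes there was 1 each. Over all genes tested 1.93% were lower and 0.435% higher, and counts of 1 or 2 in these lists are not read as a result about their members. Wnt4, a Wnt ligand, was the Wnt gene with a lower response: it rose from 2.27 and 1.64 CPM to 133 and 131.5 in C cells, and from 1.06 and 0.713 to 18.9 and 19.6 in P cells (interaction −1.62 ± 0.33, adjusted p = 0.0913).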

How the data were processed

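The authors sequenced RNA from C and P cells at day −2 and day 1 (2 biological replicas each, 8 libraries) on the Ion Torrent system, used the FASTX-Toolkit to remove artifacts, TopHat for alignment to mm9, and counted reads on UCSC refGene genes with R packages. The deposited values are raw read counts per NCBI gene, without normalization. How reads on several genes and the strand were treated is not given in the sources used here. P-values and intervals rest on the spread between these replicas, pooled over all conditions for each gene, and the cultures of the replicas are not described. Since the P replicas at day −2 were the farthest apart, p-values between C and P cells can be too small at day −2 and too large at day 1. Symbols for 23929 genes came from a RefSeq list (GRCm38.p6), used for names only. The counts were filtered with filterByExpr, scaled by TMM and fitted with edgeR 4.0.16 in R 4.3.3, using 1 mean per condition and the quasi-likelihood test, two-sided, with Benjamini-Hochberg adjustment over the 13339 genes tested. CPM use the TMM-scaled library sizes. SE and 95% intervals follow from the F statistics. DESeq2 1.42.0 and limma 3.58.1 (voom with library weights) were alternatives, with DESeq2 size factors, library totals, other filters on low counts, a replica block, other thresholds and each library left out.

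The genes and lists were chosen with earlier results of these data known. The genes named are, for each division and direction, the 4 called genes with the lowest p that have a symbol, a mean of at least 50 counts and separate responses, up to 4 called members of each list, and genes the study names; others, Slpi, Lgr6, Mx1, Rsad2, Oas1a, Oasl2, Stat2, Il6st, Il1r1, Egr2, Nr4a3 and Btg2 among them, were named after their values were seen. Ctgf and Cyr61 were matched under their present symbols, Ccn2 and Ccn1. A search of promoters was not run, and no sequence was used here. A member of the interferon list entered its counts and median and is not reported singly here. The code was tested on simulated counts.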

Additional observations from a re-analysis of the deposited data

Results flagged for a closer look

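The response to induction differed between C and P cells by a test of the difference itself in 316 genes, and the genes listed first in each division are given here with their interaction on the log2 scale. With 2 replicas in a condition, no gene was tested for a replica far from the rest of its condition.

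Of the genes shifted at day −2 only, the values were −4.32 for Irf7, −4.59 for Usp18, −4.91 for Hp and −4.02 for Isg15, and in the other direction 2.83 for Sema5a, 1.88 for Gas7, 2.19 for Dpt and 2.62 for Gdpd5. Of those diverging only at day 1 they were −2.70 for Ugt1a7c, −2.68 for Ugt1a2, −2.69 for Ugt1a5 and −2.68 for Ugt1a1, which share exons, and 1.89 for Fabp5, 4.51 for Cidec, 1.73 for Acsl1 and 1.36 for Nrip1. Of those called on both days they were −5.50 for Oas2, −4.55 for Tnn, −2.84 for Sorcs1 and −4.44 for Slfn2, and 3.26 for Gpd1, 4.09 for Mmp3, 4.89 for Dapk1 and 3.81 for Kcnt2.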

How the results depend on the processing

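No interaction reversed in any alternative, but the separate responses of the called genes left little room for a reversal. Of 86 genes followed singly, 19 kept the call in every alternative that tested them, among them Irf7, Usp18, Isg15, Oas2, Hp, Tnn, Slfn2, Sorcs1, Igfbp5, Slpi, Sema5a and the Ugt1a genes, and 67 lost the call in at least 1, 24 of them only where a library was left out. In order, the numbers of genes called in all, with a lower response, with a higher response, shifted at day −2 only, diverging only at day 1 and shifted on both days moved as follows. With DESeq2 they were 930, 714, 216, 331, 201 and 63. With the replicate block they were 117, 101, 16, 63, 33 and 17. At an adjusted p under 0.05 they were 174, 148, 26, 94, 45 and 20. With library weights 34 genes had a higher response. With no ratio threshold 74 genes were shifted on both days. With C and P cells fitted within each day 35 were shifted at day −2 only, 120 diverged only at day 1 and 10 were shifted on both days. The cause of these moves was not tested, apart from the stricter or looser thresholds. With 1 library left out, the ranges were 32 to 8395, 29 to 4229, 2 to 4166, 19 to 3543, 11 to 363 and 2 to 257; the lone sample was assumed to vary like the other conditions, and the numbers for each library stand with the results.

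With library totals in place of TMM the median of all genes moved from −0.01 to 0.29, and 68.4% of 272 calls were lower against 81.6%, with 237 genes shared. That scaling moved the median of glucocorticoid targets from −0.30 to 0.03. Libraries that bear one number deviated with no common sign (correlations across genes of −0.355 to 0.209 between conditions), so the numbers were not taken to pair them. A block with the day 1 numbers crossed, added after the data were seen, called 313 genes, 274 of them shared. With the block, 21 interferon-stimulated, 5 immediate early and 4 lipid genes were called and 0 regulators of the C/EBP and PPAR list. With 2 replicas, a small difference in response was not detectable. Some calls, those of Adipoq, Hp, Igfbp5 and Slc2a4 among them, rest on C libraries near or below 3 counts, where the size of a ratio is uncertain.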

Other observations

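Enzymes of glycolysis recurred among the genes diverging only at day 1, and a list of 18 genes of glycolysis and lactate was written after this was seen, so its numbers are a description. Of the 18, 8 had a lower response in P cells and 0 a higher one, against 1.93% and 0.435% of all genes tested, and the median interaction was −1.24. All 18 had a negative value, 4 were called higher by induction in C and 0 in P cells, and P cells were below C cells by call in 8 at day 1 and above them in 1 at day −2. Tpi1, which interconverts the triose phosphates, stood at 681.5 and 589.7 CPM in C and 815 and 687 in P cells at day −2, and at 1023 and 1148 in C and 470.4 and 471 in P cells at day 1. The C replicas were higher after induction than before and the P replicas lower, each by less than 2-fold (interaction −1.45 ± 0.23, adjusted p = 0.0414). Pdk1, which keeps pyruvate out of the mitochondria, stood between 22.5 and 32.6 CPM in both cells at day −2, and at 98.7 and 95.6 in C and 30.7 and 28.9 in P cells at day 1 (interaction −1.43 ± 0.26, adjusted p = 0.0614). Ldha, which makes lactate, was called at neither day, with an interaction of −1.64 ± 0.31 (adjusted p = 0.0712). The median was −1.09 without replica 1 of P cells at day −2 and −1.47 without replica 2. With the replicate block 0 of the 18 were called.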
